A study of Homo sapiens with 4 samples.

Results

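The expression of 10 genes of the epithelial-mesenchymal transition (EMT) was examined in A549 cells exposed to embelin. They comprised the transcription factors SNAI1, SNAI2, ZEB1, ZEB2 and TWIST1, the epithelial surface proteins CDH1 and EPCAM, and the mesenchymal products CDH2, VIM and FN1. The genes were picked by name as well-known genes of the transition, with earlier results of these data known, by a rule that uses no measured value. A probe belonged to the set when the array files gave it one of these names, or when its transcript accession was a RefSeq transcript of one of these genes. This rule found 15 of the 50238 probes on the array, and every gene had at least 1. EPCAM was found by its accession, since the files give it the older name TACSTD1. SNAI2, TWIST1 and VIM had 2 probes each, FN1 had 3 and the other genes had 1.

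A549 cells are a widely used line derived from a human adenocarcinoma of the lung, and embelin is a quinone found in plants. The study compared 2 control samples of untreated cells with 2 samples of cells given 15 µM embelin, all collected at 4 h, to look for pathways that change early in embelin-induced apoptosis. Both groups had been placed in medium with less serum before the treatment, and no vehicle is named for the controls. The labels number the samples as replicates and do not say whether they came from separate cultures, so p-values measure the spread between these samples, which may be technical.

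RNA of each sample was labelled with Cy3 and hybridised to 1 Agilent array, and the 4 arrays lay on 1 slide of 1 scan, with the controls at positions 4 and 1 and the embelin samples at positions 2 and 3. One array of each group had fewer probes above background: 66.7% of the probes were well above background in control 1 and 66.4% in embelin 2, against 50.3% in control 2 and 51.2% in embelin 1. Across genes, the log2 signals of the controls correlated with r = 0.973, those of the embelin samples with r = 0.972, and pairs of a control and an embelin sample with r between 0.926 and 0.968. The A549 label was checked against 16 markers of A549 and lung epithelium, of which 15 passed the filter on dim probes and none was called changed. The keratin KRT18 had a mean log2 signal of 17.76 in the controls and 17.62 with embelin, and the aldo-keto reductase AKR1B10, which is abundant in A549 cells, had 17.36 and 17.25. Markers of the alveolar lineage were dimmer or not detected: SFTPB did not pass the filter, the surfactant protein gene SFTPC had 6.10 and 6.23, and the lineage factor NKX2-1 had 5.50 and 6.07. The aspartic protease NAPSA had 7.64 and 5.80, a difference of -1.84 with an unadjusted limma p of 0.0027 and an adjusted p of 0.072, and 1 of its embelin arrays was not well above background. Most markers of other cells did not pass, with 3 of 10 fibroblast markers, 0 of 6 endothelial markers and 3 of 8 leukocyte markers passing. The pan-leukocyte marker PTPRC and the fibroblast matrix gene COL3A1 were among those that did not pass. Those that passed on all arrays included THY1, with a mean log2 signal of 10.67 in the controls and 10.16 with embelin, CD68, with 10.14 and 10.53, and CD14, with 9.54 and 8.93. Their part in the results was not tested.

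In the epithelial-mesenchymal transition, cells held together in a sheet loosen their junctions and take on the shape and motility of mesenchymal cells, and carcinomas are thought to use the same programme in invasion. Factors of the SNAI, ZEB and TWIST families bind E-box elements and repress epithelial genes such as CDH1, while mesenchymal genes such as VIM and FN1 are turned on. TGF-beta signalling is a standard inducer of the programme, and A549 cells are often used to study it because they keep epithelial proteins while already making vimentin and N-cadherin.

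A few of the array's oligonucleotides show what the values rest on. Each is 60 bases long and is written 5′ to 3′ in the sense of the transcript, as the scanner files hold it. The files give no genome position for them. The FN1 probes are shown because they read separate stretches of a long transcript and differed in what could be used, with the first and the third filed under the same transcript and the second under another FN1 transcript. The VIM probes are shown because they gave nearly the same difference, and the ZEB1 probe because this gene has no other one and it was too dim to test. All letters are in lower case, since no part of a probe is singled out.
FN1 probe 1: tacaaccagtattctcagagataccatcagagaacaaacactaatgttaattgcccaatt
FN1 probe 2: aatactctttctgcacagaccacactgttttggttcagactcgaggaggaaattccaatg
FN1 probe 3: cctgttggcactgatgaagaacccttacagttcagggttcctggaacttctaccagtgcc
VIM probe 1: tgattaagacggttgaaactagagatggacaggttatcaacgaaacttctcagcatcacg
VIM probe 2: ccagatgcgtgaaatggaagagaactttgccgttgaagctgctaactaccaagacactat
ZEB1 probe: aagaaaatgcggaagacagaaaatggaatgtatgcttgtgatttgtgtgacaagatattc

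Embelin was compared with control for every gene, and the EMT genes were read against that background. None of the 9 EMT genes that could be tested was called changed after adjustment over all genes, while SNAI1 stood at a 2.57-fold higher signal with embelin, the cadherins CDH1 and CDH2 had small differences with wide intervals, and VIM and FN1 stood at 1.27-fold and 1.12-fold of control. The values are log2 signals after each array was scaled to a common 75th percentile. A gene was called changed when its limma p was under 0.05 after Benjamini-Hochberg adjustment across 17649 genes. By that rule 1.81% of these genes were called, of which 221 had more and 99 had less signal with embelin, against 0 of the 9 EMT genes. At p under 0.05 without adjustment, limma counted 19.5% of all genes and 2 of the 9, SNAI1 and ZEB2, and the methods' t-test counted 15.6% of all genes and also 2 of the 9, SNAI1 and TWIST1. Both counts are near the background, and ZEB2 passed the filter on dim probes through the embelin samples alone.

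Of all genes tested, 8.26% reached at least a 2-fold difference together with an unadjusted p under 0.05 in limma, and of the EMT genes 1 did, SNAI1. SNAI2 and ZEB2 passed the filter through the embelin samples, where they were higher, and this route favours a higher value with embelin. The other 7 were well above background on all arrays, and their median difference was 0.04 in log2, with 4 higher and 3 lower, beside a median of -0.06 over all genes measured in that way. Both embelin samples lay on the same side of both controls in 51.8% of all genes that had 4 usable values. Among the 7, FN1 lacked a value for embelin 1, and of the other 6 SNAI1, TWIST1 and VIM did so, which is no more than the background. With 2 samples a group, the smallest two-sided p that an exact permutation test can give for a single gene is 0.333. Each sample was RNA from many cells together, so that more cells making a transcript cannot be told apart from more transcript per cell.

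**Figure D1:**
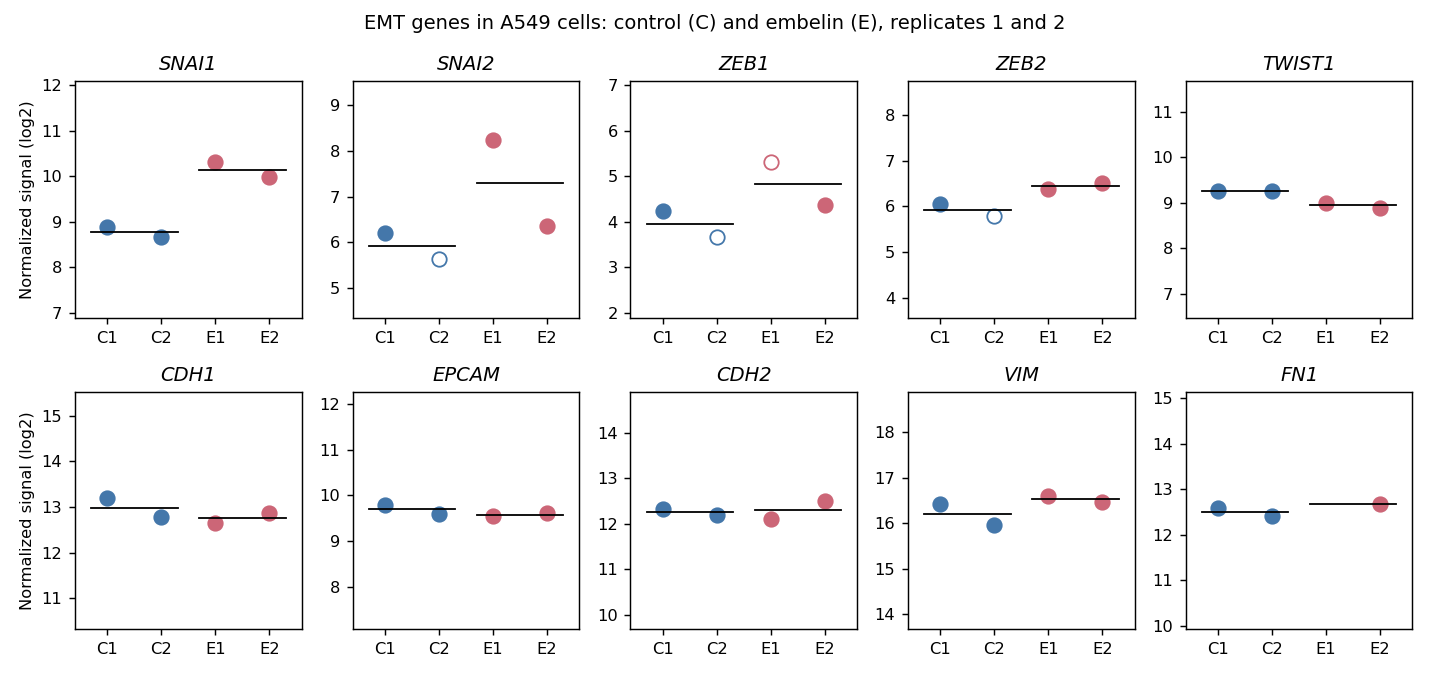
Normalized log2 signal of the 10 EMT genes in control samples 1 and 2 (C1 and C2, blue) and embelin samples 1 and 2 (E1 and E2, red), with a line at each group's mean. Open points were not well above background, every panel spans the same range of log2 units, and FN1 has no point for embelin 1 because that spot was left out. SNAI1 lies between 8.67 and 8.89 in the controls and between 9.99 and 10.30 with embelin.

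SNAI1 encodes Snail, a zinc finger repressor of CDH1 with a short-lived transcript and protein. Its log2 signal was 8.89 in control 1, 8.67 in control 2, 10.30 in embelin 1 and 9.99 in embelin 2. Both embelin samples were therefore above both controls, and all 4 arrays measured the probe well above background. Expressed as scaled intensity, the controls gave 475 and 408 and the embelin samples 1264 and 1016. The group means were 8.78 ± 0.16 and 10.15 ± 0.22 (SD, n = 2 each), and the difference of 1.36 (SE 0.21, 95% confidence interval 0.80 to 1.93) corresponds to 2.57-fold, with an interval of 1.74-fold to 3.80-fold. The unadjusted p of limma was 0.0023 and the adjusted p 0.068, which misses the threshold. Among the differences of all genes tested, that of SNAI1 lay at percentile 95.8. Between the arrays with more probes above background, control 1 and embelin 2, the difference was 1.10, and between the other arrays it was 1.63. Under 19 other settings it stayed between 1.21 and 1.52. Settings that changed only the test, the filter, the floor, the outlier spots or the rule for several probes left it at 1.36. Terms for replicate number, slide position or array background also left it there, so the range rests on the remaining settings. The adjusted p fell below 0.05 in 3 of the 19. It was 0.037 with normexp background correction and 0.033 when only probes well above background on all arrays were kept. With limma's trend and robust options it was 0.021. The adjusted p ranged up to 0.44, its value with no filter on dim probes.

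SNAI2 encodes Slug, the relative of Snail known from neural crest and epidermal migration. Its brighter probe gave log2 signals of 6.21 in control 1, 5.63 in control 2, 8.24 in embelin 1 and 6.36 in embelin 2. The difference rests mainly on embelin 1, since embelin 2 lay just above control 1. Control 2 was not well above background, so the gene was tested only because both embelin samples were. The means were 5.92 ± 0.41 and 7.30 ± 1.33 (SD, n = 2 each), a difference of 1.38 (SE 0.70, limma adjusted p 0.38). Its interval of -0.53 to 3.30 includes no difference as well as a large one. Without embelin 1 the difference was 0.44 and without embelin 2 it was 2.32, and normexp background correction gave 0.51. The other SNAI2 probe did not pass the filter on dim probes, with log2 signals of 3.96, 3.61 and 3.94 in control 1, control 2 and embelin 2, and the spot of embelin 1 was left out as an outlier.

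**Figure D2:**
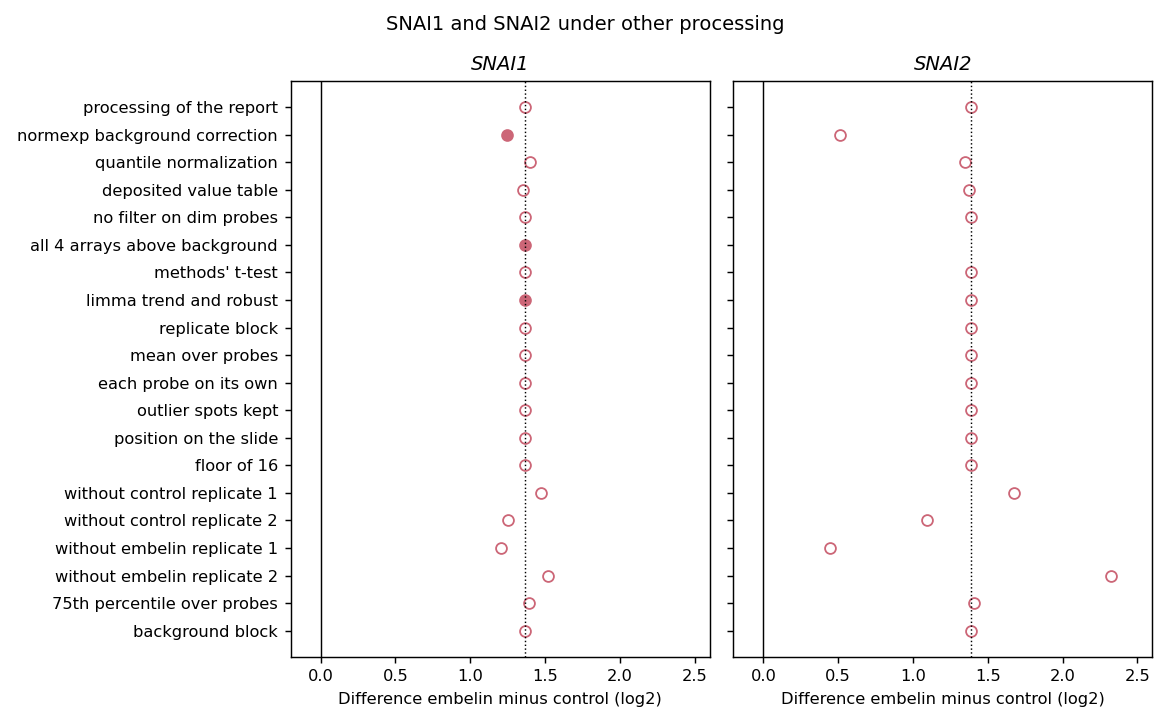
Difference between embelin and control (log2) for SNAI1 and SNAI2 under the processing used here (top row) and under 19 and 18 other settings, with filled points where the adjusted p was under 0.05 (limma, or the methods' t-test in its own row). The dotted line marks the value reported: SNAI1 stays between 1.21 and 1.52, while SNAI2 spans 0.44 to 2.32. Settings that change only the test, the filter, the floor, the outlier spots or the rule for several probes leave both genes on that line. The terms for replicate number, slide position and array background do so too.

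The ZEB factors, zinc finger homeobox repressors that also act on CDH1 and are held down in epithelia by the miR-200 family, were at the dim end. The only ZEB1 probe gave 4.24 in control 1, 3.67 in control 2, 5.31 in embelin 1 and 4.37 in embelin 2, and was well above background in control 1 and embelin 2 alone. It was therefore not tested. Its embelin samples lay above its controls, but between control 1 and embelin 2, the arrays that measured it, the difference was 0.13.

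ZEB2 gave log2 signals of 6.05 in control 1, 5.79 in control 2, 6.38 in embelin 1 and 6.51 in embelin 2. The groups did not overlap, but control 2 was not well above background, and the gene was tested only because both embelin samples were, a choice that favours a higher value with embelin. The difference was 0.52 (SE 0.19, 95% confidence interval 0.01 to 1.04), or 1.44-fold, with an unadjusted limma p of 0.047 and an adjusted p of 0.25. It was 0.46 between control 1 and embelin 2 and 0.59 between control 2 and embelin 1. With normexp background correction it was 0.23.

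TWIST1, a basic helix-loop-helix factor of mesoderm, was the transcription factor with the lower signal under embelin. Its brighter probe gave scaled intensities of 608 in control 1, 610 in control 2, 512 in embelin 1 and 473 in embelin 2, all well above background. The controls were nearly the same and both embelin samples were below them. The group means on the log2 scale were 9.25 and 8.94, a difference of -0.31 (SE 0.16, 95% confidence interval -0.75 to 0.13, limma adjusted p 0.39). The other TWIST1 probe was well above background on embelin 1 alone, with a log2 signal of 6.21 there against 1.91, 3.58 and 1.60 in control 1, control 2 and embelin 2, and did not enter the test. Of the relatives of these factors, TWIST2 had a difference of -0.56 (SE 0.21, limma adjusted p 0.26), and SNAI3 did not pass the filter.

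CDH1 encodes E-cadherin, the adhesion molecule of epithelial junctions whose loss defines the transition. Its log2 signal was 13.19 in control 1, 12.78 in control 2, 12.66 in embelin 1 and 12.88 in embelin 2. The groups overlapped, with embelin 2 above control 2. The difference was -0.22 (SE 0.23, limma adjusted p 0.65), with a 95% confidence interval from -0.84 to 0.40, which leaves room for a lower as well as a higher level with embelin. Leaving out control 1 brought the difference to -0.01 and leaving out control 2 to -0.43.

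EPCAM, a homophilic adhesion protein of simple epithelia and carcinomas, gave 9.80 in control 1, 9.59 in control 2, 9.55 in embelin 1 and 9.61 in embelin 2. Embelin 2 lay between the controls. The difference was -0.12 (SE 0.17, 95% confidence interval -0.59 to 0.36, limma adjusted p 0.78).

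CDH2 encodes N-cadherin, the adhesion molecule that takes the place of E-cadherin in cells that have made the switch. Its log2 signal was 12.31 in control 1, 12.19 in control 2, 12.10 in embelin 1 and 12.49 in embelin 2. The controls lay inside the range of the embelin samples. The difference was 0.04 (SE 0.21, 95% confidence interval -0.53 to 0.62, limma adjusted p 0.94), and its sign changed when 1 array was left out: it was -0.02 without control 2 and -0.15 without embelin 2.

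VIM encodes vimentin, the intermediate filament of mesenchymal cells. Probe 1 gave log2 signals of 16.43 in control 1, 15.96 in control 2, 16.61 in embelin 1 and 16.46 in embelin 2. Probe 2 gave 16.04, 15.81, 16.20 and 16.35 in the same order. In both, the embelin samples lay above the controls, by a narrow margin over control 1. The difference was 0.34 at probe 1 (SE 0.23, 95% confidence interval -0.29 to 0.97, limma adjusted p 0.49) and 0.35 at probe 2 (SE 0.20, adjusted p 0.44 in a limma fit of all kept probes). The probes share their samples, so their likeness says nothing about the spread between samples.

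FN1 encodes fibronectin, an extracellular matrix glycoprotein. Probe 1, which stood for the gene, gave 12.60 in control 1, 12.41 in control 2 and 12.67 in embelin 2, and the spot of embelin 1 was left out because the scanner software marked it as an outlier. The difference of 0.16 (SE 0.24, 95% confidence interval -0.57 to 0.90, limma adjusted p 0.77) thus rests on 1 embelin sample. With the marked spot kept it would be 2.78, still with an unadjusted limma p of 0.21.

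The other FN1 probes had usable spots on all arrays. Probe 2 gave 7.30, 7.14, 7.05 and 7.27 in control 1, control 2, embelin 1 and embelin 2, a difference of -0.06 (SE 0.20, limma adjusted p 0.91). Probe 3 gave 9.38, 10.22, 9.46 and 10.22 in that order, a difference of 0.04 (SE 0.42, limma adjusted p 0.98). At probe 3 the samples numbered 2 were the higher ones in both groups, and the groups themselves overlapped.

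**Figure D3:**
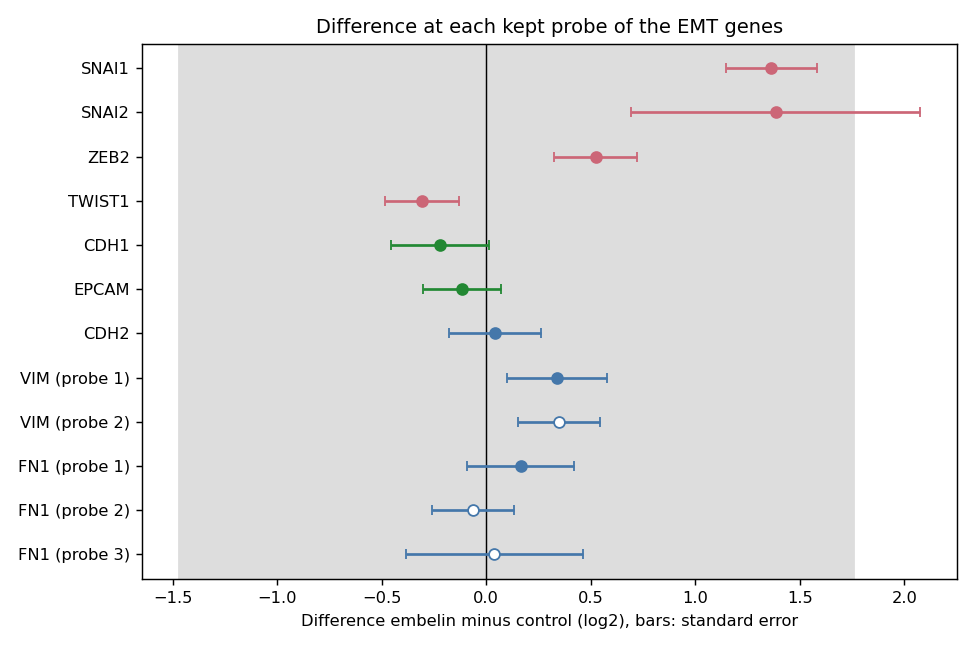
Difference between embelin and control (log2) at each of the 12 probes that passed the filter, with the standard error of the limma fit of all kept probes as bars, in red for transcription factors, green for epithelial and blue for mesenchymal genes. Filled points stand for the gene, open points are its further probes, and the grey band runs from -1.47 to 1.76, which holds the middle 95% of all genes tested. All points lie inside the band, with SNAI1 and SNAI2 farthest from 0.

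The genes around the 10 were read from 4 lists, which hold partners and targets of the transition and its best known inducing pathway. Over the 4 lists, 5 of 118 genes tested (4.24%) were called changed, beside 1.81% of all genes, among them CLDN4 and ITGB3, higher with embelin, and BAMBI and TGFBR3, lower with embelin. CLDN4 and ITGB3 are named because they were called, after their values were seen. CLDN4, ITGB3 and TGFBR3 were each not well above background on 1 array of their lower group and passed the filter through the group where they were high, which favours a difference. Limma called 0 genes with the position on the slide as a covariate or the replicate number as a block, so these calls rest on a fit without such terms. A fit with 1 array left out leaves 1 sample in a group, so it cannot show how far a call rests on that array. BAMBI was called under 9 of 19 other settings. The other 3 had no value when all arrays had to be above background, and of the remaining 18 settings CLDN4 was called under 9, ITGB3 under 7 and TGFBR3 under 6.

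Of 41 epithelial junction and identity genes, 31 were tested, and 1 was called higher (3.23%) and 0 lower. The 28 well above background on all arrays had a median difference of -0.16, with 17 of the 28 lower. The one called was CLDN4, a claudin of tight junctions, with log2 signals of 5.65 in control 1, 5.21 in control 2, 8.24 in embelin 1 and 8.19 in embelin 2. It rose by 2.78 (SE 0.22, limma adjusted p 0.027), and 1 of its control arrays was not well above background. Genes that were well above background on all arrays and differed most were TJP3, a tight junction scaffold, at -1.26 (adjusted p 0.062), ELF3, an epithelial ETS factor, at 0.78 (adjusted p 0.28), and PPL, a desmosomal plakin, at -0.77 (adjusted p 0.31), none called by limma. KRT8 and KRT18, the keratin pair of simple epithelia, had differences of -0.56 (adjusted p 0.31) and -0.14 (adjusted p 0.69). In the limma fit of all kept probes, the other KRT8 probe had -0.71 (adjusted p 0.37). The other KRT18 probes had -0.31 (adjusted p 0.49) and -0.42 (adjusted p 0.37) in that fit. CTNNB1, which encodes the β-catenin that binds cadherin tails, had 0.18 (SE 0.31, adjusted p 0.81).

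Of 45 mesenchymal and matrix genes, 32 were tested, and 1 was called higher (3.12%) and 0 lower. The 28 well above background on all arrays had a median difference of 0.04, with 15 of the 28 higher. ITGB3, the β3 integrin that binds fibronectin and vitronectin, gave 6.11, 5.31, 9.38 and 8.91 in control 1, control 2, embelin 1 and embelin 2. It rose by 3.43 (SE 0.36, limma adjusted p 0.044), with 1 control array not well above background and a difference of 3.19 (adjusted p 0.059) at the other kept probe. That probe shares the samples, was also not well above background in control 2 (3.67), and passed the filter through the embelin samples. WNT5A, a non-canonical Wnt ligand, had a difference of -1.64 (limma adjusted p 0.084). COL1A1, a chain of type I collagen, had 1.30 (adjusted p 0.055), and 1.83 and 1.76 (adjusted p 0.048 and 0.051) at its other probes in the limma fit of all kept probes. At these other probes control 2 (5.34 and 5.21) lay under 5.85, the lowest signal well above background on its array. Both therefore passed the filter through the embelin samples, where they were high, which favours a difference. COL1A1 is also 1 of the 3 fibroblast markers that passed the filter. Another of them, the surface glycoprotein THY1, had a difference of -0.52 (adjusted p 0.25), and 7 of the 10 did not pass the filter.

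Of 33 regulators and cofactors of the transition other than the 5 factors above, 29 were tested, and 0 were called higher and 1 lower (3.45%). The 28 well above background on all arrays had a median difference of -0.20, with 19 of the 28 lower. ETS1, an ETS-domain factor that acts on matrix protease genes, had a difference of 1.70 (limma adjusted p 0.11) and of 1.06 at its other probe. GSC, the homeobox factor goosecoid of the embryonic organizer, had -1.19 (adjusted p 0.065).

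Of 27 TGF-beta pathway genes, 26 were tested, and 0 were called higher and 2 lower (7.69%). The 24 well above background on all arrays had a median difference of 0.05, with 14 of the 24 higher. BAMBI, a decoy receptor that dampens TGF-beta signalling, gave 14.80, 14.78, 13.18 and 13.12 in control 1, control 2, embelin 1 and embelin 2. It fell by 1.64 (SE 0.16, limma adjusted p 0.038). TGFBR3, the co-receptor betaglycan that presents TGF-beta ligands, gave 8.29, 7.85, 4.90 and 5.51 and fell by 2.87 (SE 0.30, adjusted p 0.045), with 1 embelin array not well above background. Among the ligands, TGFB1 had a difference of 0.07 (adjusted p 0.90) and TGFB2 of -0.65 (SE 0.19, adjusted p 0.19), with both embelin samples of TGFB2 below both controls. SMAD7, the inhibitory SMAD that TGF-beta itself induces, had -0.15 (adjusted p 0.77).

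**Figure D4:**
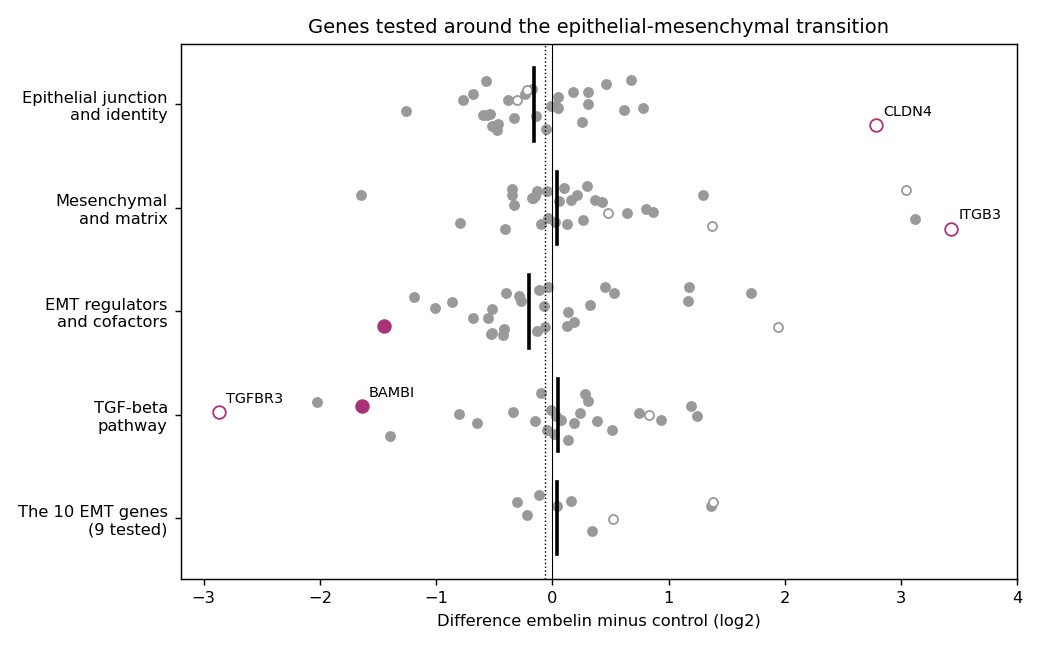
Difference between embelin and control (log2) of each tested gene in the 4 lists and of the 9 tested EMT genes, with a bar at each list's median over its filled points and a dotted line at the median of all genes measured in that way, -0.06. Filled points were well above background on all arrays and open points were not. Purple points are the 5 genes called after adjustment, with names for CLDN4, ITGB3, BAMBI and TGFBR3, and vertical scatter within a list carries no meaning. No EMT gene is called, and the median of their 7 filled points is 0.04.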

How the data were processed

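Total RNA from A549 cells, 2 control and 2 embelin samples, was hybridised to arrays with a single dye. The authors deposited scanner intensity values from Feature Extraction (10.7.3.1 per the file headers), background-subtracted and detrended, and not normalized between arrays. Their table of probe values holds the same intensity averaged over spots. A 75th percentile shift, at least 2-fold change and a test, called the methods' t-test here, are what the study's methods name.

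Each array was scaled so that the 75th percentiles of its 51538 non-control spots (601 to 739) were equal, with a floor of 1 before the log2 step. Outlier spots (47 to 743 per array) were dropped, and the mean of the remaining spots was taken for each probe. Gene names came from the accession for 28595 of 50238 probes, from a like-named probe for 2341 and from the files for 19302. The filter kept 26146 probes that either group showed well above background on both of its arrays, and the brightest by mean log2 signal stood for the gene. The table covers 17649 genes, fitted with limma 3.58.1 in R 4.3.3 (lmFit and eBayes, prior of 2.16 degrees of freedom) with Benjamini-Hochberg adjustment. The number of arrays limits the precision; the median SE of a difference was 0.22. On simulated data with 17298 genes in 5 draws, 74 to 116 of 200 genes changed by 2 or 3 in log2 were called, with 0 to 8 false calls. The simulated noise was independent between arrays, with no effect of slide position or background. These rates do not cover differences under 2, which include those of all EMT genes tested.

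The EMT genes and lists were chosen with earlier results of these data known. Named genes were the 10 with every probe; in each list the 5 largest of those called or, with fewer than 2 called, the 3 largest of those well above background on all arrays; and SNAI3, TWIST2, KRT8, KRT18, CTNNB1, TGFB1, TGFB2 and SMAD7 whatever their values. A few further genes picked this way enter the counts and are not reported here. Genes named from the marker lists were picked after their values were seen. The alternatives were normexp (offset 50), quantile normalization, the deposited table, other filters on dim probes, the methods' t-test, limma's trend and robust options, a replicate block, other rules for several probes, outlier spots kept, slide position, a floor of 16 and each array left out. The percentile over probes and a block for the arrays' background were added after the values were seen.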

Additional observations from a re-analysis of the deposited data

Results flagged for a closer look

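The spots left out as outliers held signal above the controls at 2 probes of the EMT genes, both on the array of embelin 1, which had 743 outlier spots against 47 to 296 on the other arrays. At FN1 probe 1 the spot left out had a log2 signal of 17.90 (intensity 234545), against 12.60 in the higher control and 12.67 in embelin 2. Its pixels varied with a coefficient of variation of 152%, against at most 15.8% for the same probe on the other arrays. At the dimmer SNAI2 probe the spot left out had a log2 signal of 8.97 (intensity 481), against 3.96 in the higher control and 3.94 in embelin 2. Its pixels varied by 79.0%, against 24.3% to 34.6% on the other arrays. The median over the other spots of the EMT genes was 16.2%, and the highest among those well above background was 36.8%.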

How the results depend on the processing

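Over 18 or 19 alternatives per gene, all 9 tested EMT genes kept their direction except CDH2, at -0.15 to 0.23 with 1 array left out (below 0 without control 2, at -0.02, and without embelin 2, at -0.15), and FN1, at -0.012 as the mean over its probes. Alternatives that change only the test leave a difference as it is, so they cannot turn its direction. FN1 had no value without embelin 2, and SNAI2 and ZEB2 none when all arrays had to be well above background. The EMT genes called, 0, became 1 (SNAI1) with normexp, with all arrays above background and with trend and robust. The count over all genes, 320, was 699 with normexp, 159 with the deposited table, 764 with all arrays above background, 1061 with trend and robust and 177 with outlier spots kept. The 5 calls in the lists became 12 with normexp, 3 with quantile normalization, 1 with the deposited table, 11 with all arrays above background, 15 with trend and robust, 2 with outlier spots kept and 8 with the percentile over probes.

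Both counts were 0 with no filter on dim probes, with the methods' t-test, with slide position, with the background block and with any array left out (range 0 to 0). At p under 0.05 without adjustment these settings counted 2131 to 3053 genes, beside 3440 in the limma fit reported. The methods' t-test gave 1003 genes at its threshold of 2-fold and unadjusted p under 0.05, and 0 after Benjamini-Hochberg adjustment. With the replicate block, 0 of all genes, 0 of the lists and 0 EMT genes were called in limma (3743 genes at unadjusted p under 0.05), and SNAI1 had an adjusted p of 0.095. The labels do not say that a number marks a shared batch, so the samples were not treated as paired. The replicate differences of the groups correlated with r = 0.18 across 17298 genes, which does not settle whether a number marks a batch. The cause of these shifts was not tested. Signal over background limits ZEB1, SNAI2 and ZEB2 most.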
